A study of Gallus gallus with 6 samples.

Results

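Fibrinogen and 7 other plasma proteins of blood clotting and clot removal were followed in chicken tissues through 10 genes: FGA, FGB, FGG, F2, F5, F7, F9, F10, PLG and PROC. They were found as the probe sets whose single gene symbol on the array is one of these names, which gave 16 of the 38535 deposited probe sets and at least 1 for each of the 10 genes. All 10 matched the RefSeq gene table by gene number and symbol. The samples were 6 Affymetrix chicken arrays of total RNA. Adipose tissue and liver had 1 array each, and 4 arrays held mixed tissue, mix 1 to mix 4, whose contents the labels do not name. All came from male Arbor Acres birds at 49 days of age, with no treatment or mutation named, that ate a commercial corn and soybean diet freely. The labels do not say how many birds stand behind an array. The aim given for the series was to profile tissues and to find genes more highly expressed in fat and liver than elsewhere.

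In vertebrates a clot forms when a chain of plasma proteases ends in thrombin, which turns soluble fibrinogen into fibrin. Hepatocytes make most of these proteins and secrete them into the blood. Several of them are modified in the cell by an enzyme that depends on vitamin K. A second set of proteins holds the chain in check or dissolves the clot: protein C, once activated, cuts the cofactors of thrombin formation, and plasmin, made from plasminogen, digests fibrin. The 3 fibrinogen chains, alpha, beta and gamma, come from separate genes and are assembled into one molecule inside the cell. In the RefSeq table FGB, FGA and FGG stand next to each other in this order with no other protein-coding gene between them, and F10 is the direct neighbour of F7.

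By the brightest probe set of each, all 10 genes gave their highest signal on liver, and on adipose tissue each was at 5.26% of its liver signal or less. Dimmer probe sets of F5 and PROC reached at most 33.4% and 20.3% there. Values are MAS5 signal intensity, a background-corrected brightness per probe set on a linear scale, and differences are in log2(signal + 13). Each gene is represented by its brightest probe set. The 10 genes lay above all 4 mixes on liver, by 2.69 to 7.61 with a median of 5.72, while 8.15% of the 11626 genes tested lay above all mixes there and 60.2% below. A gene was tested if its signal exceeded 44.1, the median of all values, on at least 1 array. All 10 passed that filter. F9 and PROC passed it through liver alone and therefore had to be higher there. Most probe sets were dimmer on liver, with a median difference of -0.75 over all those tested. Relative to that median the genes stood 3.43 to 8.36 higher. The 9 hybridisation spike-in probe sets differed by a median of only -0.17 in log2 signal. What part of the -0.75 belongs to the array and what part to the RNA was not tested.

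The array labelled liver carried liver markers and the array labelled adipose carried fat-cell markers. All 10 hepatocyte markers named on the array, such as ALB (15031 on liver against 168 to 4698 on the mixes), lay above all mixes on liver, against 8.15% of all genes. Their summed signal was 113526 on liver, 4240.5 to 11674 on the mixes and 8612 on adipose. Of the adipose sum 8116.5 came from the iron carrier TF alone, and AHSG and AMBP stood at 1.0 and 3.2. Of 8 adipocyte markers 7 lay above all mixes on adipose, against 24.9% of all genes, and ADIPOQ lay within them (4236 on adipose, 4824 on mix 1). None of these markers passed an adjusted p of 0.05 by limma. At an unadjusted p under 0.05 by limma 7 hepatocyte markers were higher on liver, against 2.99% of all genes. On adipose 7 adipocyte markers were higher, with 1904 of 25958 probe sets under that p in either direction. The median signal was 27 on liver and 48 on adipose, with the mixes at 44.8 to 58.1. In whole tissue, fewer cells of a type and less RNA per cell cannot be told apart.

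**Figure D1:**
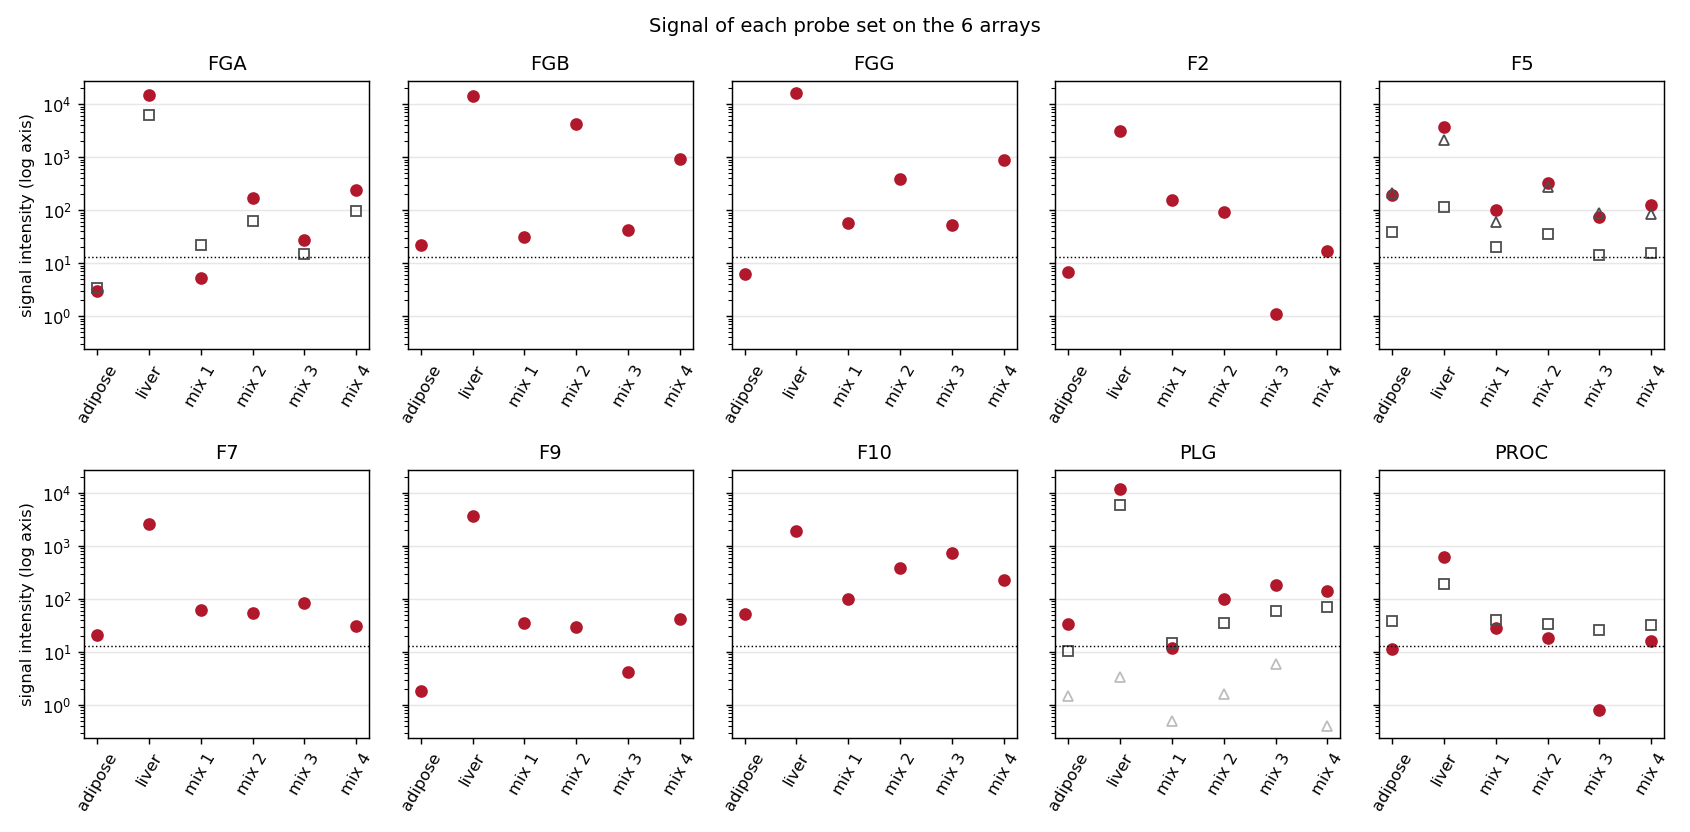
Signal intensity (log axis) of each probe set of the 10 genes on the adipose, liver and mix 1 to mix 4 arrays, 1 point per array. Filled circles are the brightest probe set of a gene, open symbols the others, pale triangles the untested PLG probe set, and the dotted line marks the added 13. Apart from that probe set every gene peaks on liver, between 616.8 (PROC) and 16084 (FGG) for the filled circles.

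FGA, the alpha chain of fibrinogen, gave a signal of 14803 on liver, 3.0 on adipose, and 5.2, 167.5, 26.9 and 240.4 over mix 1 to 4 in order. Liver stood 61.6-fold above the next array, mix 4, and adipose lay below all mixes. Its second probe set gave 6132 on liver, 3.4 on adipose and 22.4, 63.4, 15.1 and 97.9 on the mixes, so both put mix 4 and mix 2 next after liver. FGG, the gamma chain, gave 16084 on liver, 6.2 on adipose and 56.6, 382.7, 52.4 and 890.5 on the mixes, with mix 4 again next (18.1-fold lower than liver). That value is close to the highest signal of any probe set on the liver array, 16111, and whether the array saturated there was not tested.

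FGB, the beta chain, gave 14452 on liver, 22.3 on adipose and 31.4, 4259, 42.8 and 917.6 on the mixes. Mix 2 was high for this chain, so that liver stood 3.39-fold above it. Expressed as a share of the same probe set's liver signal, mix 2 carried 29.5% for FGB, 1.13% for FGA and 2.38% for FGG. The FGB share there was 26.0 times the FGA share and 12.4 times the FGG share. On mix 4 the shares of FGB and FGG were close, 6.35% and 5.54%, with FGA at 1.62%, and on mix 3 they were 0.296%, 0.326% and 0.182%. On mix 1 they were 0.217%, 0.352% and 0.0351%, and on adipose 0.154%, 0.0385% and 0.0203%. The FGB share over the FGA share was thus 6.19 on mix 1, 7.61 on adipose, 3.91 on mix 4 and 1.63 on mix 3, and over the FGG share 0.617, 4.0, 1.15 and 0.909. Shares move with a scaling factor for an array, and these ratios of shares do not. FGB has 1 probe set here, so no second one can be set beside it. The ratios to FGA on mix 1 and adipose rest on FGA signals of 5.2 and 3.0, under the added 13. The ratio to FGG on adipose rests on an FGG signal of 6.2, also under 13. By the second FGA probe set the FGA share was 0.365% on mix 1, above the FGB share, and 0.0554% on adipose. On mix 2 it was 1.03%, near that of the brightest probe set. Of the hepatocyte markers on mix 2, the shares ran from 0.477% (ITIH2) to 46.9% (APOB, which builds lipoproteins), with a median of 3.43%, and their part in the FGB signal was not tested.

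F7, F9, F10 and F2 are the proteases of the clotting chain, made as inactive precursors and modified through vitamin K. F7, which starts clotting once bound to tissue factor, gave 2607 on liver, 20.6 on adipose and 61.0, 53.4, 84.8 and 31.0 on the mixes. The mixes lay close together for this gene and liver stood 30.7-fold above the next, mix 3. F9, which together with F8 activates F10, gave 3713 on liver, 1.8 on adipose and 35.4, 29.5, 4.2 and 41.5 on the mixes. Its lead of 89.5-fold over the next array was the widest among the brightest probe sets of the 10 genes. F2, the precursor of thrombin, gave 3132 on liver, 6.7 on adipose and 154.9, 93.0, 1.1 and 16.9 on the mixes, so that mix 1 came next and mix 3 was lowest.

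F10, whose active form cuts prothrombin, was the gene with the smallest lead of liver. It gave 1905 on liver, 52.3 on adipose and 99.5, 379.1, 739.6 and 223.9 on the mixes. Mix 3 reached 38.8% of the liver signal and mix 2 reached 19.9%, against 3.25% and 2.05% for its genomic neighbour F7. The 4 thrombocyte markers named on the array (of 10 sought, with ITGA2B not among them) also peaked on mix 3, with a summed signal of 6097 there, 291.8 to 1201 on the other mixes, 432.9 on adipose and 453.5 on liver. TUBB1, a tubulin of these cells, gave 3438 on mix 3. Among the 7 macrophage markers only CSF1R was highest of the mixes on mix 3, at 2235 against 813.4 to 1352. MARCO, C1QA, C1QB and C1QC were highest of the mixes on mix 2, and CD74 and TIMD4 on mix 1. The summed signal of the 7 macrophage markers was 20661 on mix 3 and 13573 to 21596 on the other mixes, most of it from CD74. Without CD74, a sum chosen after its values were seen, it was 6539 on mix 3 and 3427 to 5958 on the other mixes. Of that mix 3 sum 2235 came from CSF1R. The 8 adipocyte markers had a summed signal of 8876 on mix 3, 2656 to 6327 on the other mixes and 67313 on adipose. Among them ADIPOQ was highest of the mixes on mix 1 and CIDEC on mix 2. High values on mix 3 were thus not particular to thrombocyte markers. The part of thrombocytes, macrophages and adipocytes in the F10 signal was not tested.

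F5, the cofactor that F10 needs to make thrombin, gave 3737 on liver, 196.6 on adipose and 99.1, 329.1, 75.2 and 126.2 on the mixes. By the brightest probe sets it stood highest on adipose relative to liver, at 5.26% against 0.0203% to 2.75% for the other 9 genes, and adipose lay within the mixes. A second probe set also put mix 2 and adipose next after liver, with 2074 on liver, 207.0 on adipose and 59.1, 275.8, 87.1 and 85.8 on the mixes. The third was dim, at 116.2 on liver, 38.8 on adipose and 14.4 to 35.9 on the mixes, and by it adipose was the next array after liver. It passed the filter through liver alone and so had to be highest there. The liver lead over the next array thus ran from 11.4-fold to 2.99-fold by probe set.

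PLG, the precursor of plasmin, gave 11936 on liver, 33.3 on adipose and 11.6, 97.8, 186.4 and 142.3 on the mixes. Its second probe set gave 5969 on liver, 10.3 on adipose and 14.7, 35.3, 59.7 and 70.5 on the mixes, and liver led by 64.0-fold and 84.7-fold. The third was near 0 everywhere (0.4 to 5.8, 3.3 on liver) and was the only one of the 16 that was not tested. PROC, protein C, had its highest value on liver by both of its probe sets. Both passed the filter through liver alone and so had to be highest there. The brighter one gave 616.8 on liver, 11.4 on adipose and 27.9, 18.1, 0.8 and 15.9 on the mixes, and the other 187.0 on liver, 37.9 on adipose and 25.6 to 40.3 on the mixes, leads of 22.1-fold and 4.64-fold. A further probe set that names PROC together with a second gene was not used.

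By size 8 of the 10 genes were at least 4-fold brighter on liver in signal + 13 than on each of the other 5 arrays, against 1.35% of all genes tested, and the 2 that were not were FGB and F10. F9 and PROC are among the 8, and their peak on liver was set by the filter, which they passed there alone. The 10 genes were also chosen with earlier results of these data known. On the log2 scale the lead of FGB over mix 2 was 1.76 and that of F10 over mix 3 was 1.35, both short of the limit of 2. The narrowest lead inside it was that of F5 at 3.45, and F9 had the widest at 6.10. Without mix 2 FGB entered at 3.96, and without mix 3 F10 entered at 2.29. By probe set 11 of the 15 tested met the 4-fold rule in signal + 13 and 12 did by signal alone. The second PROC probe set (4.64-fold by signal, 1.91 on the log2 scale) was the one that differed. All 15 lay above all 4 mixes on liver. The F9 probe set, both of PROC and the third of F5 passed the filter through liver alone and had to. No share of all probe sets was taken for these counts.

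In limma's comparison of liver with the mixes 0 of the 10 genes passed an adjusted p of 0.05 over 25958 probe sets, a threshold that 12 genes passed (0.103%), and 0 probe sets did when any 1 of the mixes was left out. At an unadjusted p under 0.05 there were 9 of 10 higher on liver, against 2.99% of all genes. The same limits hold for this contrast, as F9 and PROC are among the 9. The adjusted p ran from 0.0613 for F7 (difference 5.27, SE 0.52) to 0.291 for FGB (5.52, SE 2.65). F9 stood at 6.64 (SE 0.72, adjusted p = 0.0806), PROC at 4.56 (SE 0.71, 0.131), F5 at 4.67 (SE 0.78, 0.144) and PLG at 6.96 (SE 1.16, 0.144). FGA had the largest difference, 7.61 (SE 1.51, 0.181), followed in p by F2 (5.91, SE 1.39, 0.196), FGG (6.32, SE 1.58, 0.199) and F10 (2.69, SE 1.01, 0.238). The error is that among the 4 mixes, which are different mixtures and not repeats of one tissue, and the lone liver array is assumed to vary like them. F7, F9 and PROC crossed the threshold under other pseudocounts (F7 and F9 also under another scaling), with adjusted p from 0.0204 to 0.216, 0.00498 to 0.219 and 0.00498 to 0.262 over all alternatives. With values floored at 44.1 the 4 mixes of F9 and PROC all sit at the floor and have no spread, so their 0.00498 follows from that setting.

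**Figure D2:**
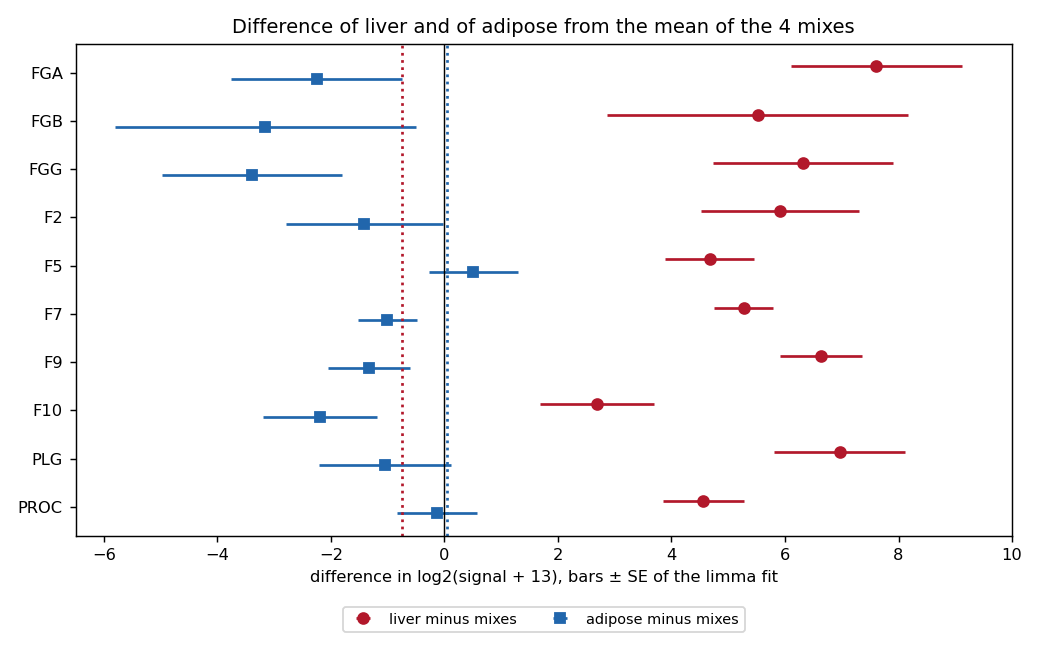
Difference of liver (circles) and adipose (squares) from the mean of the 4 mixes in log2(signal + 13), with bars of ± SE from limma, for the brightest probe set of each gene. Dotted lines are the medians of all genes tested (-0.75 for liver, 0.04 for adipose), and all 10 liver values lie to the right of 2, from 2.69 (F10) to 7.61 (FGA).

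The mixes differed among themselves for these genes. The SD over the 4 mixes in log2(signal + 13) was 3.20 for FGB, 1.88 for FGG, 1.80 for FGA, 1.64 for F2 and 1.35 for PLG. It was 0.48 for F7, and the median over the 10 genes was 1.25 against 0.49 for all genes tested. Over the hepatocyte markers this SD ran from 0.85 (TTR) to 3.66 (APOB), so a wide spread was not particular to the 10 genes. No single mix was next after liver for all: mix 4 was for FGA, FGG and F9, mix 3 for F7, F10 and PLG, mix 2 for FGB and F5, and mix 1 for F2 and PROC. The median share of the liver signal over the 10 genes was 1.65%, 2.66%, 0.311% and 2.10% on mix 1 to mix 4, and 0.676%, 3.43%, 0.353% and 4.45% over the hepatocyte markers. By this median both sets were lowest on mix 3. By summed signal both were lowest of the mixes on mix 1 (582.6 against 1214.2 on mix 3 for the 10 genes, 4240.5 against 7017.3 for the markers). ALB reached 31.3% on mix 4 and 12.3% on mix 2.

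**Figure D3:**
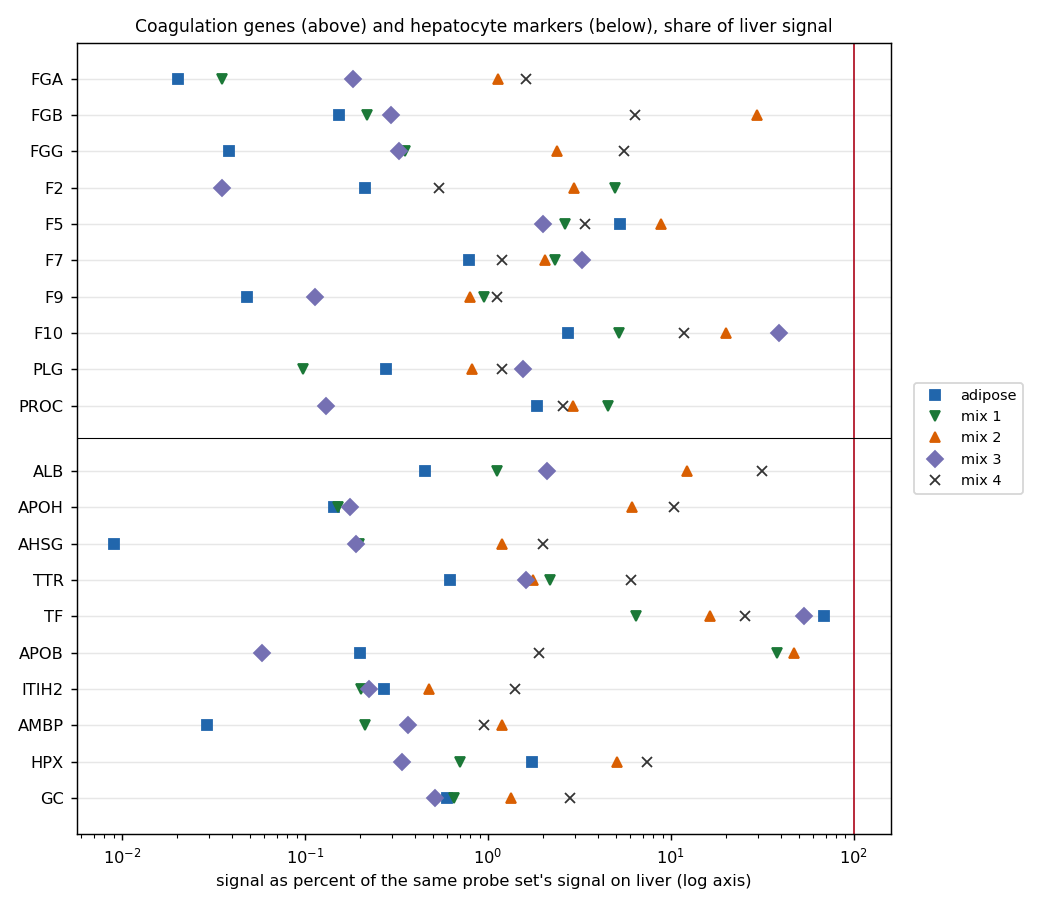
Signal on adipose and on each mix as a percent of the same probe set's signal on liver (log axis, red line at 100%), for the 10 genes (above the line) and 10 hepatocyte markers (below it). FGB on mix 2 (29.5%) and F10 on mix 3 (38.8%) lie nearest to the liver level among the 10 genes.

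By the brightest probe sets adipose tissue was at least 4-fold fainter than liver for all 10 genes, against 3.84% of genes tested, with differences from -4.16 (F5) to -9.85 (FGA). Of the other tested probe sets the third of F5 (-1.32) and the second of PROC (-1.97) fell short of 4-fold. With 1 array on each side the difference of adipose from liver has no test. Next to the mixes the values on adipose were mixed. FGA (-2.25, SE 1.51), FGB (-3.16, SE 2.65), FGG (-3.39, SE 1.58), F7 (-1.01, SE 0.52), F9 (-1.33, SE 0.72) and F10 (-2.19, SE 1.01) lay below all 4 mixes, 6 of 10 against 17.0% of all genes, and 0 lay above all mixes, against 24.9%. F2 (-1.41), PLG (-1.05), PROC (-0.13) and F5 (0.51) lay within the mixes. None passed limma (adjusted p from 0.76 to 0.986, and 0 of 10 lower at an unadjusted p under 0.05, against 1.41% of genes), and 0 of 25958 probe sets did, with 1904 at an unadjusted p under 0.05. On adipose 5 of the 10 signals were at or under the added 13, so these differences understate ratios. Placement next to the mixes also moved with the probe set. On adipose the third of F5 (0.63) lay above all mixes and the second of PLG (-1.2) below all. The other tested probe sets placed their gene as the brightest did. The 2 comparisons share the 4 mixes.

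Of 9 other clotting and contact factors sought 8 were named on the array, with a median of 1.61 for liver minus the mixes against -0.75 for all genes. Of these 5 lay above all mixes on liver (8.15% of all genes did) and 3 were at least 4-fold above every other array (1.35% of all genes were). KLKB1 is 1 of these 3 and passed the filter through liver alone, so it had to be highest there. KNG1, the kininogen of the contact system, gave 6956 on liver against 21.5 to 44.8 elsewhere (7.39, adjusted p = 0.0426 by limma, with 0.00498 to 0.207 over the alternatives) and was the one that passed. Without 1 mix its adjusted p was 0.0757 to 0.207, over the threshold whichever mix was left out. With values floored at 44.1 the mixes of KNG1, at most 44.8, had almost no spread. The lowest of its adjusted p by limma follows from that setting. A probe set annotated as F12 stood at 6.01, the prekallikrein gene KLKB1 at 3.74 and F13B, the carrier subunit of the fibrin-crosslinking factor, at 2.27. The enzyme subunit of that factor, F13A1, went the other way, with 3284 on adipose, 1662 on mix 3 and 102.6 on liver (-1.75 for liver against the mixes). F3, the tissue factor that F7 binds, was also brighter on adipose (592.7) and mix 4 (618.1) than on liver (72.5). F8, the cofactor of F9, was chosen after its values were seen: it gave 472.0 on adipose, 227.4 on liver and 85.5 to 148.8 on the mixes, where F9 was at 1.8 on adipose.

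Of 8 anticoagulant proteins named on the array (10 sought, median 0.41) 4 lay above all mixes on liver and 3 below, against 8.15% and 60.2% of all genes. SERPINA10, the partner of protein Z, passed limma (6174 on liver against 1.7 to 45.3, 7.33, adjusted p = 0.0426, with 0.00498 to 0.207 over the alternatives), but not without any 1 mix (0.08 to 0.207). With values floored at 44.1 the mixes of SERPINA10, at most 45.3, had almost no spread. Its lowest adjusted p by limma follows from that setting. SERPIND1, heparin cofactor II, stood at 6.28, PROZ at 4.85 and PROS1, the cofactor of protein C, at 1.15. TFPI, which blocks tissue factor, gave 33.6 on liver and 470.7 on adipose (-2.12), and TFPI2 gave 597.4 on liver and 5151 on adipose (-2.37). Of 8 genes of fibrinolysis (12 sought, median -0.35) 3 lay above all mixes on liver and 4 below, against the same 8.15% and 60.2%, and none passed limma. At an unadjusted p under 0.05 by limma 3 were higher on liver and 2 lower. Of all genes 2.99% were higher at that p, and 5165 of the 25958 probe sets were under it in either direction. The inhibitor A2M (7.13), CPB2, whose product slows fibrin removal (7.01), and HRG (3.07) were the genes above all mixes. KLKB1, PROZ, CPB2 and HRG passed the filter through liver alone and therefore had to be highest there. ANXA2 and S100A10, which form a cell-surface site for plasminogen, were low on liver (-3.43 and -1.31) and bright on adipose (12378 and 9148), and SERPINE2 stood at -3.21.

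Of 7 genes sought that act on the clotting proteins before secretion 5 were named and 4 tested (median 0.98), and none passed limma (1 higher at an unadjusted p under 0.05, against 2.99% of all genes). Liver minus the mixes was 2.88 for NQO1, 1.09 for FURIN, a protease that trims precursors, and 0.50 for VKORC1L1. It was 0.87 for MCFD2, which helps carry F5 and F8 out of the endoplasmic reticulum in humans. VKORC1, which recycles vitamin K, was at 29.8 to 40.9 on all 6 arrays and was not tested. The 3 receptors of thrombin and related proteases (4 sought, median 0.23) stood at 0.63 (F2RL2), -0.58 (F2R) and 0.23 (F2RL1). Of the 3 fibrinogen-like proteins (5 sought, median -0.58) FGL2 was at 79.0 on liver and 3340 on adipose (-1.28), with FCN2 at -0.58 and ANGPTL4 at -0.20. None of these 6 passed limma. At an unadjusted p under 0.05 by limma 1 of them, FGL2, was lower on liver. Of the 25958 probe sets 5165 were under that p in either direction. None of 8 liver transcription factors (11 sought, median 1.40) passed limma (1 higher at an unadjusted p under 0.05, against 2.99% of all genes). Above all mixes lay 4, against 8.15% of all genes: NR1H4 at 3.47, PROX1 at 2.60, CEBPB at 1.65 and FOXA1 at 1.20. FOXA1 (48.3 on liver, at most 30.4 elsewhere) also passed the filter through liver alone and had to be highest there. HNF4A gave 537.1 on liver but 891.4 and 837.7 on mix 1 and mix 2 (1.60), and CEBPA gave 159.7 on liver and 333.6 on adipose (0.92).

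**Figure D4:**
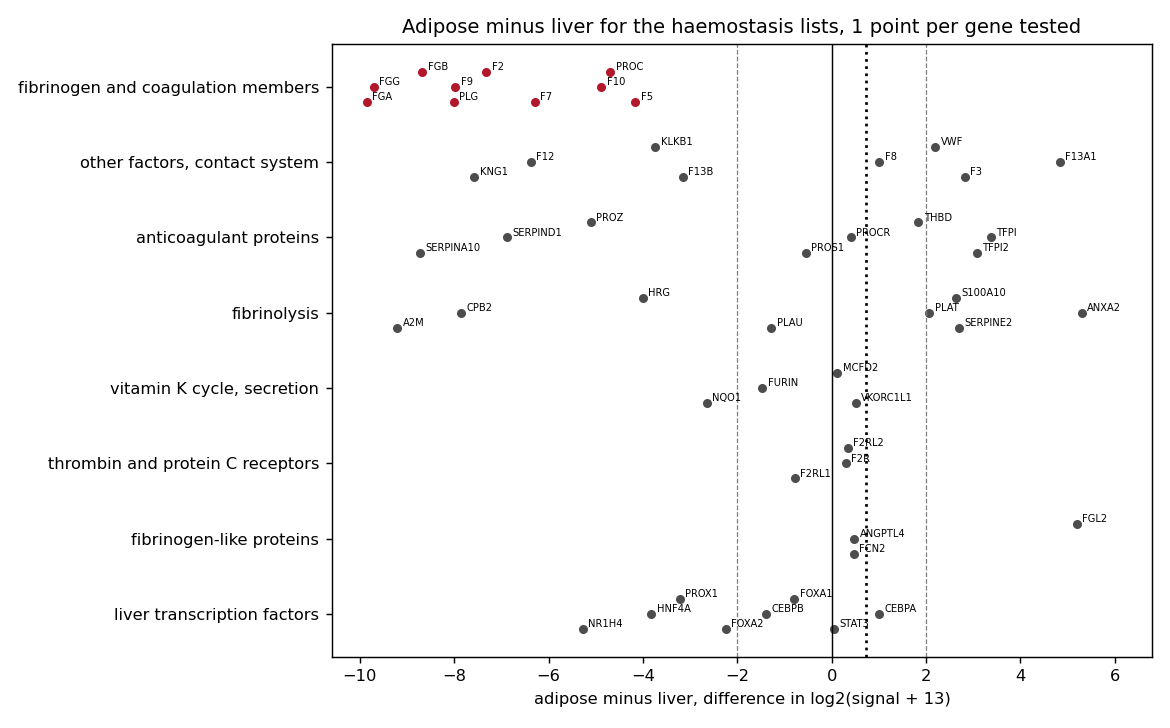
Adipose minus liver in log2(signal + 13), 1 point per gene tested, for the 10 genes (top row) and 7 related lists. Dashed lines mark 4-fold, the dotted line the median of all genes tested (0.73); the 10 genes lie between -9.85 and -4.16, and of the other lists clotting and contact factors, anticoagulant proteins and fibrinolysis hold genes past 4-fold on both sides.

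The genes whose level over the 6 arrays was nearest to the median profile of the 10 were C5, AMBP, HABP2, SULT, AWAT1, SPIA1, A2M and CETP, by root mean square distance in log2(signal + 13) (0.69 for C5 to 0.87 for CETP). That profile stood at 11.87 on liver, 4.84 on adipose and 5.86, 7.14, 5.92 and 7.20 over mix 1 to 4 in order. C5, a complement component, gave 4706 on liver, 1.9 on adipose and 20.3 to 182.5 on the mixes. HABP2, a plasma protease, gave 6974 on liver, 28.2 on adipose and 18.9 to 104.8 on the mixes. The 10 genes themselves were farther from their own median, from 0.93 (F7) and 1.15 (PLG) to 1.79 (F10), 1.90 (PROC) and 2.43 (FGB).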

How the data were processed

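Total RNA of 6 samples was labelled as biotin cRNA and measured on Affymetrix chicken arrays, per the labels. The authors computed the deposited signal intensity with MAS5, per the submitters' processing notes; its version and scaling target are not known here. The number of arrays limits the precision. Groups follow the sample titles, since the description field names adipose tissue for all arrays. Here 96 control probe sets were left out, log2(value + 13) was taken (13.3, the 25th percentile of the deposited intensity values, rounded), and 25958 probe sets above 44.1 on at least 1 array entered a limma fit with a mean for each group and an eBayes trend (limma 3.58.1, R 4.3.3; two-sided, Benjamini-Hochberg). The residual has 3 degrees of freedom, from the mixes, and 2.59 prior ones. The p-values measure only the spread between these samples. limma was tested on simulated data in which liver varied as the mixes did, so that assumption was not tested. Adipose against liver, and prominence on liver, were judged by size. Genes were named from the platform's annotation, and all 10 members with all probe sets are given, with up to 6 genes of each pathway list by size on liver and the 8 most alike genes. The members and lists were chosen with earlier results of these data known. The lists were other clotting and contact factors, anticoagulant proteins, fibrinolysis, vitamin K cycle and secretion, protease receptors, fibrinogen-like proteins and liver transcription factors, with markers of hepatocytes, adipocytes, thrombocytes, endothelium and macrophages. Alternatives were other pseudocounts, scalings, no filter, no trend, the mean of probe sets and leaving out each mix.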

Additional observations from a re-analysis of the deposited data

How the results depend on the processing

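Liver stayed above the mean of the mixes and above adipose for all 10 genes under every alternative run. The 13 probe sets that passed on liver became 84 with the median as pseudocount, 204 with the floor (in 143 of these all 4 mixes sat at it, with no spread), 27 with quantile scaling, 77 with trimmed-mean scaling, 27 without the filter, 28 without the trend, 23 with the mean of probe sets, and 0 whichever mix was left out, with fewer degrees of freedom. With the pseudocount not rounded (13.3), chosen after seeing the data, they were 18. Of the 10 genes 3 passed with the median as pseudocount, 3 with the floor (F7, F9 and PROC both times, with all mixes of F9 and PROC at the floor) and 2 with trimmed-mean scaling (F7 and F9). On adipose 671 probe sets passed with the floor and 0 under the other alternatives; in 420 of these all 4 mixes sat at the floor. PROC on adipose changed sign, to 0.01 with the mean of probe sets and 0.08 without mix 1 (-0.45 to 0.08 when 1 mix was left out). The genes at least 4-fold brighter on liver were 8, or 9 with trimmed-mean scaling (FGB added), without mix 2 (FGB) or without mix 3 (F10). The median shift on liver was -0.09 (quantile), -0.26 (trimmed mean) and -0.60 (spike-ins). No paired analysis was possible because adipose and liver have 1 array each. Signals near 13 carry little information on size.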

Other observations

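Endothelial markers were brighter on adipose than on liver, by a median of 1.71 against 0.73 for all genes tested. Of the 8 markers 4 were at least 4-fold brighter, a count for which no share of all genes was taken. On adipose 7 lay above all mixes, against 24.9% of all genes. Their median difference from the mixes was 2.33, against 0.04 for all genes (PECAM1 5680 on adipose and 266.7 on liver). VWF, which carries F8 in plasma, gave 4848 on adipose, 1043 on liver and 722.6 to 1258 on the mixes. Of 7 macrophage markers 5 lay above all mixes on liver and 5 on adipose, against 8.15% and 24.9% of all genes. TIMD4 gave 2939 on liver and 91.6 on adipose and MARCO 3620 and 513.7, while CSF1R gave 2158 and 3329. None of these markers passed limma on either side. At an unadjusted p under 0.05 by limma 1 endothelial and 5 macrophage markers were higher on liver, against 2.99% of all genes. On adipose 6 endothelial and 0 macrophage markers were higher, with 1904 of 25958 probe sets under that p in either direction.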
